A study of Mus musculus with 8 samples.

Results

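The inflammasome and pyroptosis genes were the 10 genes Nlrp3, Nlrp1b, Nlrc4, Naip2, Naip5, Aim2, Pycard, Casp1, Casp4 and Gsdmd, found by their symbols among the 53247 genes of an RNA-Seq table of tumor-associated macrophages (TAMs). All 10 symbols were found once. The sort gate, on cells of digested s.c. Lewis lung carcinoma (LLC) tumors, required F4/80, MHC II, CD11b and CD45 at the surface. LLC is a transplantable mouse lung cancer line, and tumors were taken 14 days after implantation. There were 4 WT and 4 miR-21 null (miR-21-/-) samples, from host mice labelled C57/BL6 and 10 weeks old, and the comparison asks how loss of miR-21 alters the TAM transcriptome. The deletion was in the whole body, so that the host's other cells also lacked miR-21 while the implanted tumor cells were the same in both groups. The title of miR-21 null replicate 1 joins a pair of sample numbers, and whether its material was pooled was not stated.

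Inflammasomes are protein complexes that macrophages build in their cytosol when a sensor meets microbial products or signs of cell damage. Sensors recruit the adaptor ASC, the product of Pycard, and ASC gathers and activates caspase-1, which cuts the precursors of IL-1β and IL-18 and the pore-forming protein gasdermin D. Caspase-11, the product of Casp4 in mice, binds cytosolic lipopolysaccharide and cuts gasdermin D without a sensor complex. Gasdermin D pores release the cytokines, and the cell death that follows is called pyroptosis. Transcription of several of these genes is induced before activation, in a step called priming, by NF-κB and interferon signals. mRNA levels do not measure cutting, cytokine release or cell death.

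Values were CPM, that is read counts per 1e+06 reads of the sample. The depth read from the steps between low values lay between 20.2 and 33.4 times 1e+06 reads per sample, so that 1 read was worth 0.0300 to 0.0495 CPM. Each of the 10 genes rested on at least 520 reads in every sample. Mir21a was listed at the file's floor of 0.0001 CPM in all 8 samples, so the table offers no check of the genotype labels. The 10 macrophage markers, among them Ptprc, Itgam and Adgre1, which encode the antigens CD45, CD11b and F4/80 used in the sort, summed to between 14081 and 15691 CPM in WT and between 14469 and 17196 CPM in miR-21 null samples, and the summed levels overlapped. Single macrophage markers did separate the groups: Adgre1 (542 to 583 CPM in WT, 399 to 466 CPM in miR-21 null samples) and Csf1r (1108 to 1474 against 866 to 1044 CPM) were lower without overlap, Fcgr1 (230 to 305 against 411 to 518 CPM) was higher without overlap, and the other 7 overlapped. Summed markers of neutrophils lay lower in every miR-21 null sample (609 to 790 CPM) than in any WT sample (823 to 1238 CPM). Of these 11 markers, Csf3r (298 to 338 CPM in WT, 217 to 265 CPM in miR-21 null samples) and Mmp8 (52.7 to 68.5 against 23.9 to 42.2 CPM) were lower without overlap, and the other 9 overlapped, among them Ly6g at 1.09 to 2.74 against 1.52 to 3.17 CPM. Lower sums without overlap were also found for markers of fibroblasts (10.1 to 44.1 against 60.7 to 137 CPM), epithelial cells (13.7 to 18.4 against 19.9 to 26.3 CPM) and B cells (3.84 to 11.3 against 11.4 to 17.6 CPM). Of the 5 B cell markers only Cd79b was lower without overlap (8.89 to 15.6 CPM in WT, 3.03 to 5.67 CPM in miR-21 null samples), and the other 4 overlapped. Single markers were lower without overlap for 3 of 6 fibroblast and 2 of 5 epithelial cell markers. The sums for monocytes, dendritic cells, T cells, NK cells and endothelial cells overlapped, but Cd8a (1.32 to 2.19 against 2.80 to 11.6 CPM) and Clec9a (2.30 to 2.74 against 4.18 to 13.97 CPM), of T cells and dendritic cells, were higher and Cd4 (5.93 to 29.99 against 0.845 to 3.396 CPM) was lower in every miR-21 null sample. The other 5 dendritic cell markers overlapped, and in miR-21 null samples the means of Flt3, Zbtb46, Ccr7 and Cd209a were lower and that of Xcr1 was higher. The other 6 T cell markers overlapped as well. None of the markers was at the floor in all samples. The part of these markers and cells in the results below was not tested. In sorted bulk RNA, fewer cells that carry a transcript and less of it per cell cannot be told apart.

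Under the deposited scaling, those of the 10 genes that passed the limits went in both directions. When the samples were rescaled by the median of ratios or by quantile normalization, all that passed were higher. Casp4, Casp1 and Nlrp3 were higher and Nlrc4 was lower in miR-21 null TAMs at an adjusted p of at most 0.005 and a fold change over 1.5, so that 4 of 10 genes passed both limits. Of all 13850 genes tested with limma, 7.12% passed both limits, 2.89% as higher and 4.23% as lower. At the limit on the adjusted p alone stood 6 of the 10 genes (Nlrp1b and Naip2 in addition, neither in every alternative) against 14.3% of the genes tested. The groups did not overlap in 7 of the 10 genes, against 35.1% of the genes tested. The median log2 fold change (miR-21 null over WT, on the log2(CPM + 1) scale throughout) was 0.30 over the 10 genes and -0.10 over all genes tested. Since the 10 genes were chosen with results of these samples known, these shares describe them and are not a test of the group.

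**Figure D1:**
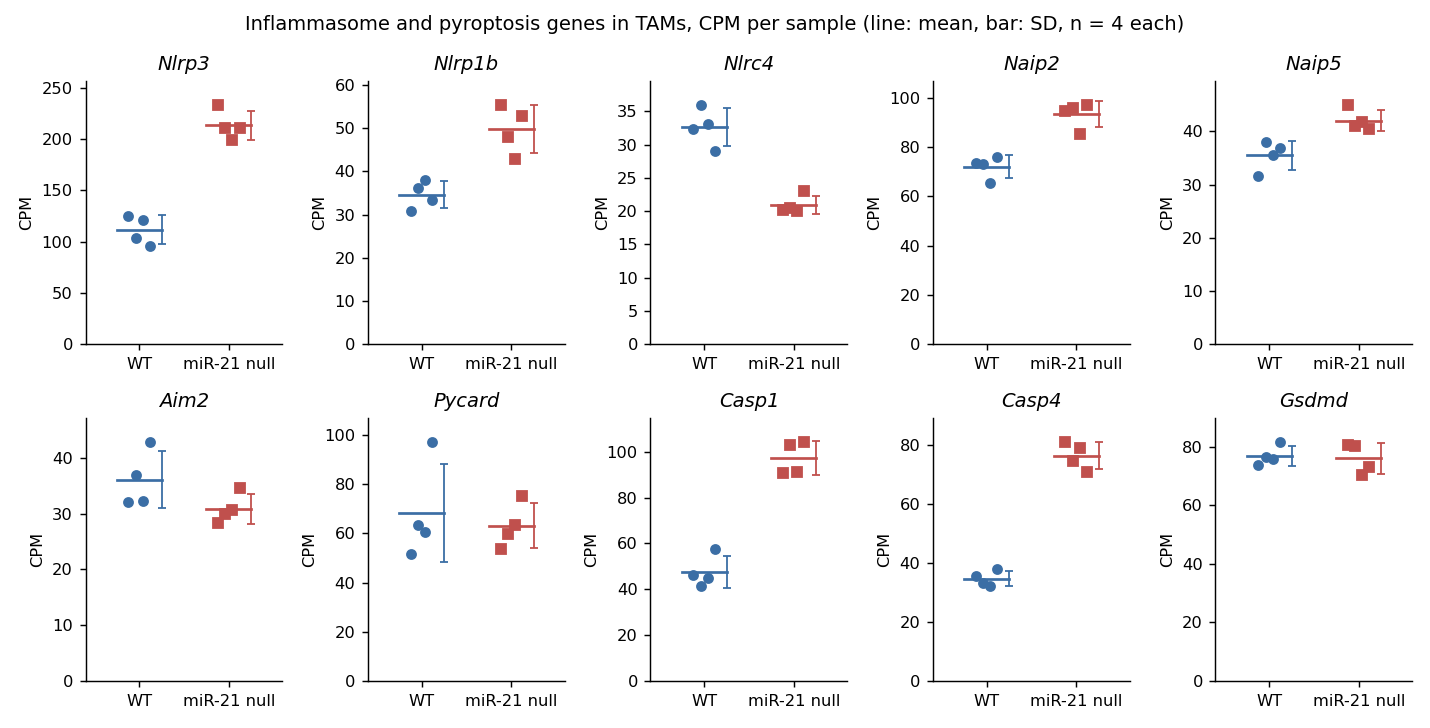
CPM of the 10 genes in each sample (y axis, from 0), with WT samples as circles and miR-21 null samples as squares, lines for group means and bars for SD. Nlrp3, Casp1 and Casp4 are higher and Nlrc4 is lower in all 4 miR-21 null samples than in any WT sample, whereas Gsdmd, Pycard and Aim2 overlap.

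Among the sensors, Nlrp3 showed the largest difference. NLRP3 responds to many signs of damage, including potassium efflux, and needs priming for its expression. Nlrp3 (chr11:59541568-59566956, plus strand, mm10) was at 125, 104, 121 and 96.3 CPM in WT replicates 1 to 4. In miR-21 null replicates 1 to 4 it was at 233, 210, 199 and 211 CPM. The lowest miR-21 null sample was far above the highest WT sample. The fold change was 1.91 (log2 0.93 ± 0.088 SE, adjusted p = 7.04e-05, limma, n = 4 each).

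Nlrp1b, which also encodes a sensor, was just short of the limits. Nlrp1b (chr11:71153102-71230733, minus strand) was at 30.8, 36.1, 38.03 and 33.5 CPM in WT and at 55.4, 48.0, 42.8 and 52.7 CPM in miR-21 null samples. All 4 miR-21 null values were above the WT values. The log2 fold change of 0.51 ± 0.090 (SE) had an adjusted p of 0.00218 but stayed under the limit on fold change. The limit was passed when the samples were rescaled by the median of ratios (0.62) or by quantile normalization (0.59). The adjusted p was over its limit with no filter (0.00947) and without WT replicate 1, 2 or 4 or miR-21 null replicate 1, 2 or 4 (up to 0.00734). Nlrp3 and Nlrp1b lie on the chromosome of Mir21a, at 27.0 and 15.4 Mb from it. Within 20 Mb of Mir21a, 39 of 538 genes tested passed both limits (7.25%, next to 7.12% of all genes). Nlrp3 lies outside this window, and the share does not speak to any single gene within it. Whether nearness to Mir21a had a part in either value was not tested.

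NLRC4 and the NAIP proteins form one machine, in which NAIPs bind bacterial flagellin or secretion system proteins (NAIP5 flagellin, NAIP2 the rod protein) and NLRC4 polymerizes upon them. Nlrc4 fell, and the Naip2 and Naip5 values did not pass both limits. Nlrc4 (chr17:74426295-74459108, minus strand) was at 32.4, 36.0, 33.2 and 29.1 CPM in WT and at 20.2, 20.4, 19.97 and 23.0 CPM in miR-21 null samples. Every miR-21 null value was below every WT value. Its log2 fold change was -0.62 ± 0.076 (SE, adjusted p = 0.000321), just past the limit on fold change. Nlrc4 fell short of that limit under rescaling by the median of ratios (-0.51), under quantile normalization (-0.52), with a pseudocount of 10 (-0.46) and without WT replicate 2 (-0.57), each with an adjusted p of at most 0.00122. The summed neutrophil markers were lower in the same 4 samples, though 9 of these 11 markers overlapped, Ly6g among them. Sums for fibroblasts, epithelial cells and B cells were lower there too, as were Adgre1 and Csf1r, while Fcgr1 was higher. The part of any of these in the Nlrc4 value was not tested.

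Naip2 (chr13:100144063-100202092, minus strand) was at 73.7, 73.3, 65.3 and 76.1 CPM in WT and at 94.8, 95.9, 85.4 and 97.1 CPM in miR-21 null samples. The groups did not overlap. Its log2 fold change of 0.37 ± 0.064 (SE, adjusted p = 0.00195) was under the limit on fold change. The adjusted p was over its limit with no filter (0.00687), without the intensity trend (0.0051) and without WT replicate 2 or 3 or miR-21 null replicate 1, 2 or 4 (up to 0.00762). Naip5 (chr13:100211739-100246323, minus strand) was at 31.6, 37.9, 35.5 and 36.9 CPM in WT and at 45.0, 41.0, 41.8 and 40.4 CPM in miR-21 null samples. These groups did not overlap either, and the log2 fold change of 0.24 ± 0.067 (SE) had an adjusted p of 0.0196, over the limit.

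Both genes sit in an array of closely similar copies on chromosome 13, in the order Naip2, Naip5, Naip6 and Naip1, all on the minus strand. Naip6, another flagellin receptor, was lower in all 4 miR-21 null samples (42.7 to 48.2 CPM) than in WT (57.5 to 67.3 CPM), with a log2 fold change of -0.51 ± 0.065 (SE, adjusted p = 0.000373), under the limit on fold change. Naip1 did not reach the filter on low values and was at 0.625 to 0.994 CPM in WT and at 0.0452 to 0.322 CPM in miR-21 null samples, where replicate 1 was under the 0.112 CPM that 3 reads are worth there. The ratio of Naip5 to Naip6 CPM was between 0.545 and 0.564 in the WT samples and between 0.917 and 0.962 in the miR-21 null samples. Of the stretches of 50 bases in the annotated transcripts of Naip5, 36.8% also occur in other genes, most often in Naip6 (22.3%), and 19.1% of those of Naip2, most often in Naip1 (12.3%). The values of the Naip genes are uncertain for this reason, since reads from shared stretches may have been split between copies or dropped. For Nlrp3, Pycard, Casp1, Casp4 and Gsdmd no such stretch was shared.

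AIM2 senses double-stranded DNA in the cytosol. Aim2 (chr1:173350879-173466040, plus strand) was at 32.1, 37.0, 32.3 and 42.9 CPM in WT and at 28.3, 29.9, 30.6 and 34.6 CPM in miR-21 null samples. The groups overlapped, and the log2 fold change was -0.21 (95% interval -0.43 to 0.01, adjusted p = 0.118). It was -0.10 under the median of ratios and -0.13 under quantile normalization or without WT replicate 4.

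The adaptor Pycard (chr7:127989708-127993867, minus strand) was at 51.8, 63.5, 60.7 and 97.3 CPM in WT and at 53.7, 59.8, 63.4 and 75.4 CPM in miR-21 null samples. WT replicate 4 was above all other samples and miR-21 null replicate 4 was next. The remaining values of both groups lay among each other. The log2 fold change was -0.08 with a wide 95% interval of -0.47 to 0.30 (adjusted p = 0.731), and without WT replicate 4 it was 0.097. The interval lies within a fold change of 1.5 in either direction.

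Both inflammatory caspases were about doubled. Casp1 (chr9:5298517-5307265, plus strand) was at 46.4, 41.2, 44.9 and 57.4 CPM in WT and at 90.9, 103, 91.1 and 104 CPM in miR-21 null samples. Its fold change was 2.04 (log2 1.03 ± 0.097 SE, adjusted p = 6.92e-05). Casp4 (chr9:5308828-5336783, plus strand), which encodes caspase-11, was at 35.5, 33.2, 32.1 and 37.9 CPM in WT and at 81.1, 74.5, 78.8 and 70.9 CPM in miR-21 null samples. It had the largest difference of the 10 genes, a fold change of 2.17 (log2 1.12 ± 0.067 SE, adjusted p = 5.25e-06). In both genes the lowest miR-21 null sample was well above the highest WT sample.

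The caspase genes are neighbours on chromosome 9, where Casp4 begins 1562 bases after the end of Casp1 and Casp12 begins 8646 bases after the end of Casp4, all on the plus strand. Casp12, a relative of the inflammatory caspases, rose from 2.24, 2.77, 2.38 and 3.11 CPM in WT to 9.11, 11.2, 9.14 and 11.8 CPM in miR-21 null samples (log2 fold change 1.64 ± 0.12 SE, adjusted p = 1.61e-05). At this low level the size depends on the pseudocount, and with 10 in place of 1 it was 0.68, still past both limits. All 3 genes of the locus were thus higher in every miR-21 null sample. The ratio of Casp1 to Casp4 CPM overlapped between the groups, at 1.24 to 1.51 in WT and 1.12 to 1.47 in miR-21 null samples.

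Gsdmd, the substrate through which both caspases open the membrane, did not follow them. Gsdmd (chr15:75862339-75867404, plus strand) was at 73.6, 76.6, 75.7 and 81.7 CPM in WT and at 80.6, 80.3, 70.2 and 73.0 CPM in miR-21 null samples. The groups covered nearly the same range. The log2 fold change was -0.02 with a 95% interval of -0.15 to 0.12 (adjusted p = 0.838), which leaves out a change of the size seen in Casp1 or Casp4.

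**Figure D2:**
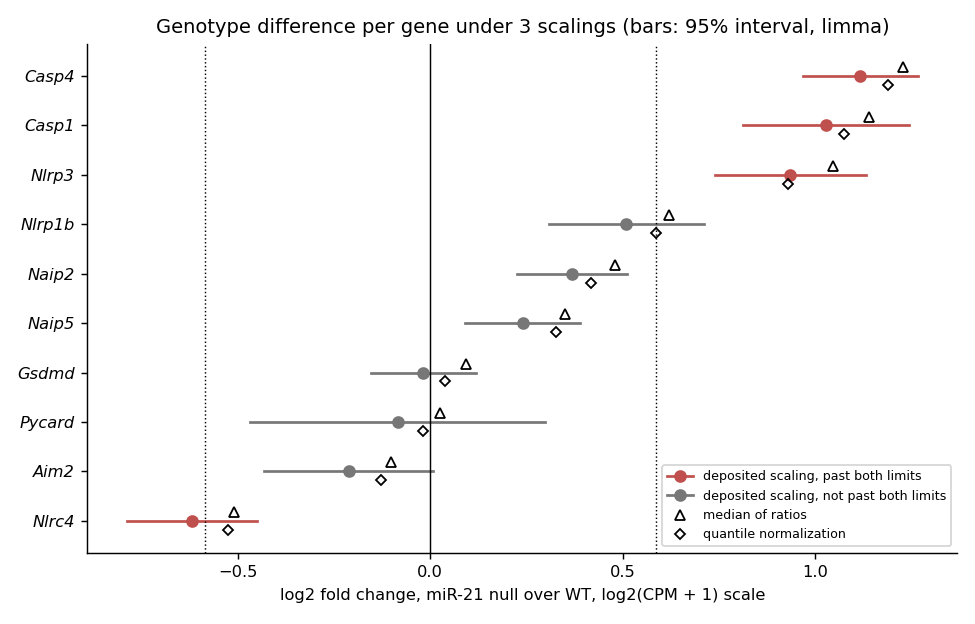
Log2 fold change of each gene (x axis, miR-21 null over WT), with 95% intervals as bars, open triangles for rescaling by the median of ratios, open diamonds for quantile normalization and dotted lines at the limit on fold change. Casp4, Casp1 and Nlrp3 are past the limit under all 3 scalings, Nlrc4 (-0.62, -0.51 and -0.52) and Nlrp1b (0.51, 0.62 and 0.59) change sides, and Gsdmd (-0.02, 0.09 and 0.04) and Pycard (-0.08, 0.03 and -0.02) change sign.

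Scaling bears on the small differences. Under the deposited scaling 400 genes were higher and 586 lower, under the median of ratios 520 and 350, and under quantile normalization 491 and 337. Rescaling by the median of ratios moved the median of all genes from -0.10 to -0.003 and added about as much to each of the 10 genes. The count stayed at 4 under each rescaling, with Nlrp1b in place of Nlrc4 and all 4 higher. Nlrp3, Casp1 and Casp4 kept their calls in each of the 10 alternatives of the fit and in each of the 8 fits without 1 sample. The alternatives with a looser limit on adjusted p or none on fold change reuse the main fit and could not take a call away. Their log2 fold changes over all of these were 0.87 to 1.05 for Nlrp3, 0.91 to 1.14 for Casp1 and 0.95 to 1.23 for Casp4.

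Ratios within a library do not depend on scaling between libraries. The pairs were chosen after the values were seen and are given without a test. Casp1 was at 0.538 to 0.703 of the Gsdmd CPM in WT samples and at 1.13 to 1.43 in miR-21 null samples. The Casp4 to Gsdmd ratio was 0.424 to 0.482 in WT and 0.927 to 1.12 in miR-21 null samples. The Nlrp3 to Pycard ratio was 0.989 to 2.42 against 2.80 to 4.35, lowest in WT replicate 4 with its high Pycard value. Nlrc4 was at 0.383 to 0.508 of the Naip2 CPM in WT and at 0.213 to 0.237 in miR-21 null samples. In each of these pairs the groups did not overlap.

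**Figure D3:**
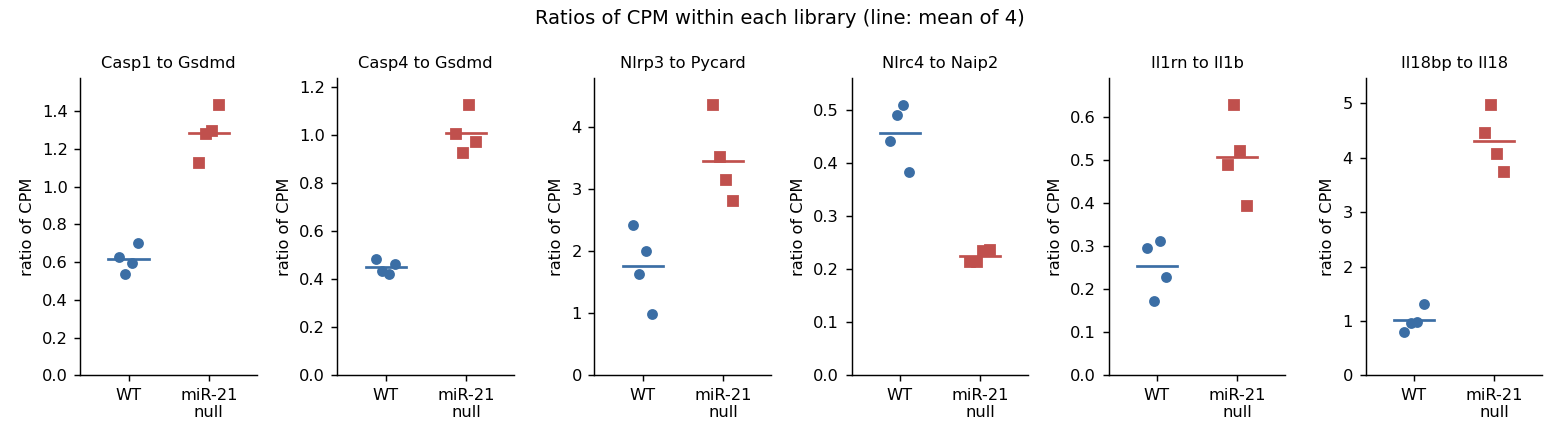
Ratio of CPM between 2 genes of the same library (y axis, from 0) in each WT (circles) and miR-21 null (squares) sample, with lines for group means. The ratio of Nlrc4 to Naip2 is lower in all 4 miR-21 null samples, at most 0.237 against at least 0.383 in WT, and the other ratios are higher in all of them.

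Apart from the ratios of CPM, levels were compared between genes only per length. Per kilobase of annotated exon, Gsdmd (32.4 ± 1.45 CPM, SD, n = 4), Casp1 (31.7 ± 4.66) and Nlrp3 (27.5 ± 3.41) were the highest of the 10 in WT TAMs, and neighbours in this order overlapped over the samples. Pycard (17.98 ± 5.26) followed and overlapped with Nlrp3 above it and Naip2 (14.9 ± 0.974) below it. Aim2 (10.3 ± 1.45) and Casp4 (9.35 ± 0.697) overlapped with each other but lay apart from Naip2 above and Naip5 below. Naip5 (6.82 ± 0.528) and Nlrc4 (6.80 ± 0.587) overlapped, and Nlrp1b (5.49 ± 0.498) was lowest, its highest sample (6.03) just under the lowest of Nlrc4 (6.06). In miR-21 null TAMs, Casp1 was first at 65.0 ± 4.89 CPM per kilobase, Nlrp3 next at 52.6 ± 3.55 and Gsdmd the third at 31.98 ± 2.21. These 3 did not overlap with each other. Casp4, rank 7 in WT, was rank 4 at 20.6 ± 1.22, with overlap to Naip2 at 19.3 ± 1.10, while Nlrc4 came last at 4.35 ± 0.291. The order depends on the length used. Over the longest annotated transcript, Casp4 was at 18.2 in WT and 40.2 in miR-21 null TAMs and rank 4 in both, so that its rise in rank was not seen. By that length Nlrp1b was at 8.01 in WT, rank 8, above Nlrc4 (6.91) and Naip5 (6.82), and Gsdmd at 42.9 lay apart from Casp1 at 31.7.

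**Figure D4:**
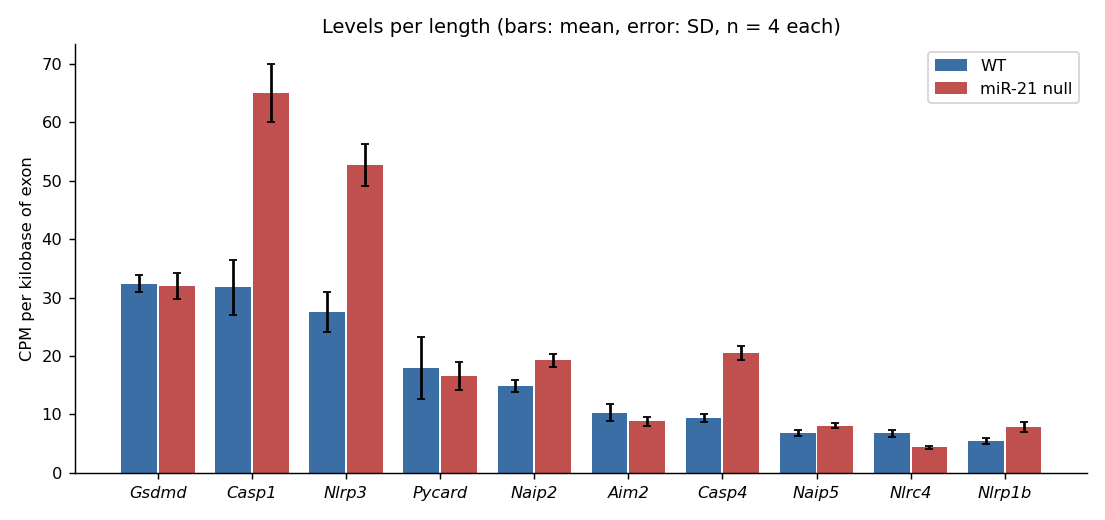
CPM per kilobase of the union of annotated exons (y axis, from 0), as means with SD over the 4 WT and the 4 miR-21 null samples, ordered by the WT level. In the miR-21 null samples the means of Casp1 and Nlrp3 stand above that of Gsdmd (65.0 and 52.6 against 31.98), and in WT they stand below it (31.7 and 27.5 against 32.4), where the samples overlap for Casp1.

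miR-21 acts by pairing of its seed with sites in mRNAs, so its sequence is shown with the seed, bases 2 to 8, in capitals (RefSeq, mature strand, 5′ to 3′).
miR-21a-5p: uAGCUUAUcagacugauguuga
None of the 10 genes held the matching 7 bases ATAAGCT in its longest annotated 3′ UTR, against 7.19% of 21022 genes, nor the site of 8 bases ATAAGCTA (2.10% of genes). The 3′ UTRs searched ran from 88 bases in Casp1 to 3004 in Pycard. Only Pycard held the weaker match of 6 bases TAAGCT, which 23.4% of genes hold, shown in capitals in its window.
Pycard 3′ UTR window: tttttgctgagcTAAGCTacatttcc
A match of letters is not a measured site, and its absence says only that these letters are not in the window searched.

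The promoters of Nlrp3, Casp1 and Casp4, the genes called higher under every alternative run, are shown (RefSeq, GRCm38.p6, coding strand, from upstream of the start to just after it). Whether priming had a part in their rise was not tested. Promoters of 9 of the 10 genes were found in the reference table; Gsdmd was not among them. Both strands were searched for an NF-κB motif (GGGANNNNCC) and an interferon-stimulated response element (GAAANNGAAA), and any match is in capitals.
Nlrp3 promoter, chr11:59541319-59541618, plus strand: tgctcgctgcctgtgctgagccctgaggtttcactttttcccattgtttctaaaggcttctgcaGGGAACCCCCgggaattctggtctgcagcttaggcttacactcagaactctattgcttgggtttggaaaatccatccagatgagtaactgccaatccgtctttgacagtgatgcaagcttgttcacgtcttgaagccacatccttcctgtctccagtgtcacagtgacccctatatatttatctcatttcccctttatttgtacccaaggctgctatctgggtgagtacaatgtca
Casp4 promoter, chr9:5308599-5308898, plus strand: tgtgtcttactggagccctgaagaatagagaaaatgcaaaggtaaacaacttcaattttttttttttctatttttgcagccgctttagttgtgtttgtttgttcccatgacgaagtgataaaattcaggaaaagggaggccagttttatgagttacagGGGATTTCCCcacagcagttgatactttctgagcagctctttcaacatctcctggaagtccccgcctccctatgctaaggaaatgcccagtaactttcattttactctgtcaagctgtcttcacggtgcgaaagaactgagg
Casp1 promoter, chr9:5298267-5298566, plus strand: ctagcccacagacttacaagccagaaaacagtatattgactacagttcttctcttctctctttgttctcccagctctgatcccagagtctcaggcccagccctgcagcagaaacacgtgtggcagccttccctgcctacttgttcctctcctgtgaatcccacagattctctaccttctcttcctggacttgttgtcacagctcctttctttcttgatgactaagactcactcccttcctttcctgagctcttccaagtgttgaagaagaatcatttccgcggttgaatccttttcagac
The NF-κB letters occurred 186 bases before the Nlrp3 start shown and 92 bases before the Casp4 start shown. In all, 2 of the 9 genes held them in a promoter, next to 20.7% of all 32851 promoters of the table. The former counts genes, some with a second promoter, and the latter counts promoters, so the shares differ in unit. A second Nlrp3 promoter and the promoter of Casp1 held neither motif. The interferon-stimulated response element was in none of the 9 genes' promoters, against 3.44% of all promoters. Absence of a motif says only that its letters are not in the stretches searched. Binding of factors to these promoters was not measured.

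The remaining genes of the pathway were read from lists by role. Of 81 genes listed, 79 were in the table and 68 were tested; 15 were higher and 2 lower past both limits, against 2.89% and 4.23% of all genes tested, and these shares are the background for each list below. Their median log2 fold change was 0.06.

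Neither of the cytokines that caspase-1 cuts passed both limits. Il1b was at 748, 713, 550 and 708 CPM in WT and at 1157, 775, 873 and 963 CPM in miR-21 null samples. The miR-21 null values were all higher, by a log2 fold change of 0.46 ± 0.13 (SE), but the adjusted p of 0.0213 was over the limit. Il18 was at 20.2, 24.6, 22.6 and 16.8 CPM in WT and at 18.4, 18.7, 18.8 and 21.8 CPM in miR-21 null samples, with overlapping groups (log2 fold change -0.10 ± 0.11 SE, adjusted p = 0.503). The Il18 value was -0.02 without WT replicate 2, -0.06 without WT replicate 3, -0.20 without WT replicate 4 and -0.15 without miR-21 null replicate 4. Il1a, whose product needs no cut by caspase-1 to act, rose from 6.07, 6.87, 7.51 and 4.03 CPM to 22.1, 14.8, 18.2 and 15.6 CPM (1.40 ± 0.17 SE, adjusted p = 0.000318). With a pseudocount of 10 its log2 fold change was 0.78, still past both limits. It was the single one of 4 released factors past both limits. Hmgb1, a chromatin protein that dying cells release, had the lowest value of the 4, -0.28 (adjusted p = 0.0876; -0.16 under the median of ratios and -0.17 without miR-21 null replicate 1).

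Among 13 tested inhibitors, the secreted antagonists of both cytokines rose. Il1rn, the IL-1 receptor antagonist, was at 222, 124, 172 and 162 CPM in WT and at 566, 486, 455 and 379 CPM in miR-21 null samples (log2 fold change 1.48 ± 0.17 SE, adjusted p = 0.000201). Il18bp, which encodes the IL-18 binding protein, was at 16.3, 23.5, 22.2 and 21.9 CPM in WT and at 81.8, 93.0, 76.6 and 81.2 CPM in miR-21 null samples (1.95 ± 0.11 SE, adjusted p = 3.02e-06). The ratio of Il18bp to Il18 was 0.804 to 1.30 in WT and 3.73 to 4.96 in miR-21 null samples, and that of Il1rn to Il1b was 0.174 to 0.313 against 0.394 to 0.626. Il1r2, the decoy receptor for IL-1, fell (-0.60, adjusted p = 0.0025), but the call was lost under the median of ratios (-0.49), quantile normalization (-0.56), a pseudocount of 10 (-0.55), no filter, a fit without the intensity trend, and in the fits without WT replicate 1 or 2 or miR-21 null replicate 2, 3 or 4. Sigirr, a receptor that restrains IL-1 family signals, had the lowest value, -0.77, at 1.75 to 2.76 CPM against 2.84 to 5.78 CPM, with an adjusted p of 0.00706. It passed both limits without WT replicate 1 (-0.91) and was -0.24 with a pseudocount of 10. The other 9 inhibitors tested did not pass both limits.

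The list of interferon-linked genes, which holds GTPases that expose bacterial ligands to the sensors, interferon regulatory factors and the DNA-sensing pair Cgas and Sting1, had most calls, 7 of 11 higher (against 2.89% of all genes tested) and none lower, with a median log2 fold change of 1.26. These were the guanylate-binding proteins Gbp2 (2.62), Gbp5 (2.06), Gbp3 (1.29) and Gbp7 (1.26), the immunity-related GTPases Irgm1 (1.49) and Irgb10 (1.17) and the transcription factor Irf1 (1.63), which drives several of them. Gbp2 had the largest difference, from 132, 112, 172 and 185 CPM in WT to 1004, 988, 879 and 782 CPM in miR-21 null samples (adjusted p = 4.01e-06). Gbp5, whose product has been tied to NLRP3 assembly, went from 52.8, 46.8, 58.2 and 65.5 CPM to 251, 219, 225 and 243 CPM (adjusted p = 1.53e-06). The lowest value was that of Cgas, a DNA sensor of another pathway, with -0.06 (adjusted p = 0.520).

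Of 12 genes for priming, 2 were higher, Tlr4 among them, and none lower. Tlr4, the lipopolysaccharide receptor at the cell surface, was at 104, 92.9, 92.6 and 88.0 CPM in WT and at 137, 160, 154 and 146 CPM in miR-21 null samples (log2 fold change 0.66 ± 0.067 SE, adjusted p = 0.000114). Ifnar2, a chain of the type I interferon receptor, had the lowest value (-0.45, adjusted p = 0.00113), under the limit on fold change. The list's median was 0.001.

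Of 17 activators and partners in cell death, Zbp1 and Mlkl were higher and none lower. Zbp1, a sensor of Z-form nucleic acids that can engage NLRP3 and necroptosis, rose from 48.1 to 75.0 CPM in WT to 134 to 164 CPM in miR-21 null samples (1.27 ± 0.13 SE, adjusted p = 0.000114). Mlkl, the executor of necroptosis, rose from 19.8 to 24.3 CPM to 38.8 to 50.8 CPM (1.00 ± 0.092 SE, adjusted p = 6.35e-05). P2rx7, the ATP-gated channel whose opening lets potassium out, had the lowest value, -0.43 (adjusted p = 0.00442), with 75.2 to 79.1 CPM in miR-21 null against 85.3 to 117 CPM in WT samples. Under the median of ratios it was -0.32, with an adjusted p of 0.0137, over the limit. The adjusted p was also over its limit under quantile normalization (0.00659), with no filter (0.0175) and without the intensity trend (0.0092). The same held when any single sample other than WT replicate 4 was left out (up to 0.0154).

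Among the other gasdermins and Ninj1, which encodes the protein that ruptures the membrane after pore formation, 2 of 10 genes reached the filter. Gsdme, a gasdermin cut by caspase-3, was lower in miR-21 null samples (9.44 to 12.4 CPM) than in WT samples (14.4 to 20.6 CPM), with a log2 fold change of -0.69 ± 0.12 (SE, adjusted p = 0.00214). That call was lost under the median of ratios (-0.59), quantile normalization (-0.57), a pseudocount of 10 (-0.43), no filter, and without WT replicate 2 or miR-21 null replicate 1, 2 or 3. Ninj1 had overlapping groups (41.0 to 88.2 CPM in WT, 82.5 to 116 CPM in miR-21 null samples) and a log2 fold change of 0.54 ± 0.20 (SE, adjusted p = 0.0608), or 0.32 without WT replicate 4. Of the 5 further sensors tested, none passed both limits; Naip6 had the lowest value and Nlrp1a, the neighbour of Nlrp1b, the highest (0.23, adjusted p = 0.0642; 0.15 with a pseudocount of 10 and 0.34 under quantile normalization). Among 4 further caspases, Casp12 passed, and Casp8, which can cut gasdermin D, had the lowest value (-0.13, adjusted p = 0.0474), which was -0.02 under the median of ratios (adjusted p = 0.813) and -0.09 under quantile normalization (adjusted p = 0.194).

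**Figure D5:**
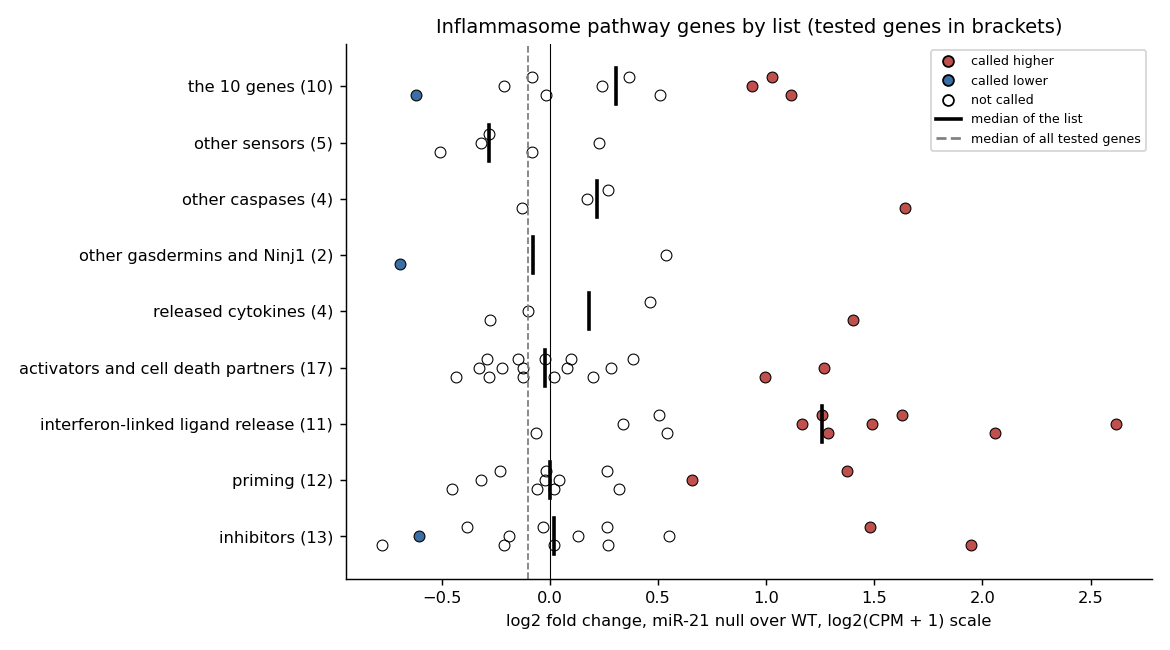
Log2 fold change (x axis, miR-21 null over WT) of each tested gene of the pathway, by list, with filled red points for genes called higher, filled blue points for genes called lower, open points for the rest, bars for list medians and a dashed line for the median of all tested genes (-0.10). The interferon-linked list has 7 of 11 genes called higher and a median of 1.26, while the medians of the other lists lie between -0.28 and 0.30.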

How the data were processed

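TAMs in 4 WT and 4 miR-21 null samples were profiled by RNA-Seq after mRNA library preparation (Kapa mRNA HyperPrep). The authors deposited 1 table of CPM values, each raised by 0.0001; the submitters' processing notes name STAR, Partek 7.0 and mm10, and the counting rule and strand are not given in the sources used here. Since the strand is not stated, reads of overlapping genes on opposite strands cannot be told apart; genes overlapping the 10 genes were all under 0.7 CPM. Column totals were 788099 to 807758 CPM. Up to 20 reads, 73.8% to 74.6% of values were whole reads (within 2% of a step), so reads were not recovered and no count test was run. Precision is limited by 4 samples per genotype. Samples are labelled as biological replicates.

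From these values, log2(CPM + 1) was fitted with limma 3.58.1 (R 4.3.3, eBayes with intensity trend) for 13850 genes whose mean reached 1 per 1e+06 of the column totals, with Benjamini-Hochberg adjustment over all of them, and tested on simulated data. Limits were an adjusted p of 0.005 and a fold change of 1.5. All 10 genes passed the filter, so the exact permutation test set for genes below it was not needed. Named were the 10 genes, Il1b and Il18, and in each list the genes past both limits and those with the highest and lowest value. A gene that this rule selects and a motif searched in the promoters are not reported here. Naip1 and the ratios were chosen after their values were seen. The genes and lists were chosen with earlier results of these data known. Alternatives were other pseudocounts, filters, scalings, limits, a fit without trend, a replicate block and leaving out each sample. Lengths, 3′ UTRs and shared stretches came from GENCODE vM21 (GRCm38), in which 93.3% of the genes had their symbol and 95.8% of these the same position; of the 10 genes, 8 had the same position, and Nlrc4 and Gsdmd differed in start and end. Figures were drawn with matplotlib 3.10.9.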

Additional observations from a re-analysis of the deposited data

Results flagged for a closer look

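In groups of 4 samples, 1 value stood apart from the other 3 by Dixon's criterion in 9 of 96 groups examined (38 named genes and 10 marker sums in each genotype); chance alone gives about 1 in 20. Of the 10 inflammasome and pyroptosis genes this held for Nlrc4, where miR-21 null replicate 4 was at 22.99 CPM and the others were at 19.97 to 20.4 CPM, still below every WT sample. In miR-21 null replicate 4, Il18 was also apart at 21.8 CPM (others 18.4 to 18.8). P2rx7 was apart in miR-21 null replicate 2 at 79.1 CPM (others 75.2 to 75.8). Gbp3 was apart in WT replicate 4 at 72.6 CPM (others 52.2 to 53.7). Ifnar2 in miR-21 null replicate 1 was at 110.7 CPM (others 95.9 to 98.0) and Sigirr at 2.76 CPM (others 1.75 to 1.83). Of the marker sums, B cells were apart in miR-21 null replicate 1 at 11.3 CPM (others 3.84 to 4.92), fibroblasts in miR-21 null replicate 2 at 44.1 CPM (others 10.1 to 14.6) and epithelial cells in WT replicate 2 at 26.3 CPM (others 19.9 to 20.9). Without any single one of these libraries Nlrp3, Casp1 and Casp4 kept their calls, and Nlrc4 lost its call without WT replicate 2 alone.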

How the results depend on the processing

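Precision is set by 4 samples per genotype, and small differences move with the scaling. The number of genes past both limits (986) was 452 with a pseudocount of 10, 547 with no filter and 1982 with no limit on fold change; the other pathway genes past the limits (17) were 26 with no limit on fold change. Leaving out 1 sample gave 684 to 1002 genes, 3 to 4 of the 10 genes and 15 to 18 other pathway genes. Signs turned in values that passed no limit: Pycard was 0.0265 under the median of ratios and between -0.202 and 0.0974 with 1 sample left out, above 0 without WT replicate 4; Gsdmd was 0.0930 under the median of ratios, 0.0377 under quantile normalization and between -0.0468 and 0.0189 with 1 sample left out (0.0111 without WT replicate 4, 0.0189 without miR-21 null replicate 3 and 0.000553 without miR-21 null replicate 4); Il18 was 0.00663 under the median of ratios; Cgas was 0.0466 under the median of ratios and 0.0242 under quantile normalization. The cause was not tested. Of 683 values of 38 named genes under other settings, 642 kept direction and side of the limits, 9 newly passed, 22 no longer passed and 10 turned in sign. The settings with looser limits reuse the main fit, so there no direction could change and no call could be lost.

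Replicate numbers did not pair the samples (correlations of same-numbered deviations of 0.08, -0.11, -0.14 and 0.22). A fit with the replicate number as a block gave 922 genes, 389 higher and 533 lower, 4 of the 10 genes and 17 other pathway genes, and an adjusted p of 0.00977 for Nlrp1b.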
